A study of Mus musculus with 6 samples.

Results

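The genes described here are the 2 corticosteroid receptors of the brain, Nr3c1 and Nr3c2, and 8 genes that glucocorticoid hormones are known to induce, namely Fkbp5, Tsc22d3, Cebpd, Zbtb16, Sgk1, Ddit4, Angptl4 and Apod. Their 10 rows were taken by gene symbol from the 23282 rows of each count table, and each symbol had a single row. The tissue was hippocampus from 16-week-old C57BL/6 mice, profiled for messenger RNA in 3 libraries labelled PHF2 t/g and 3 labelled WT (wild type). PHF2 removes methyl groups from histone H3, and t/g is taken to mean transgenic. Of the construct, its promoter and the cells that express it, no description is given in the sources used here. No hormone was given and no stress was applied in either group as far as the labels say. The genes were chosen by their place in the hormone pathway with their CPM values in PHF2 t/g against WT already known. Their differences, intervals and positions relative to the threshold applied to all genes are therefore a description, given with no p-value and as no evidence.

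Corticosterone, the main glucocorticoid of mice, crosses into the brain and binds 2 nuclear receptors. The mineralocorticoid receptor (Nr3c2) binds it with high affinity, and the glucocorticoid receptor (Nr3c1) is engaged when hormone levels climb with stress or the daily peak. Both receptors bind the same DNA element and switch on an overlapping set of genes, some of which feed back on the receptor itself. The hippocampus is known for holding both receptors and for its part in restraining the stress response.

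Library totals were 6053363 to 8612720 counts for PHF2 t/g and 5512171 to 8844718 counts for WT. Levels are CPM, the counts scaled to a common library size after TMM normalization. In these 3′ end libraries about 1 tag is read per transcript, so CPM does not grow with transcript length. All 12 hippocampal neuron markers on the list used to check the tissue were detected and tested, at a summed 524 to 631 CPM in PHF2 t/g libraries and 536 to 695 CPM in WT libraries. One of them, Wfs1, a membrane protein of CA1 neurons, rose to 50.3 ± 3.20 CPM in PHF2 t/g, against 35.9 ± 1.38 CPM in WT (edgeR adjusted p = 0.0191), a call that ended without PHF2 t/g replicate 1, without 2, without 3 or without WT replicate 3. Apart from Wfs1, Calb1 and Grik4, every hippocampal neuron marker had its lowest CPM of each group in replicate 3, as did the sum. C1ql2 was 6.00, 9.80 and 1.29 CPM over the PHF2 t/g replicates 1 to 3, and 5.33, 6.58 and 1.36 CPM over the WT ones. The regional make-up of the libraries was not tested. Calb1, Grik4 and C1ql2 were named after their values were seen. Phf2 itself was read at 38.7 ± 3.96 CPM in PHF2 t/g libraries and 37.7 ± 1.92 CPM in WT libraries (SD, n = 3 each). A transgene without the natural 3′ end of Phf2 would escape such tags, so Phf2 is no check of the genotype here. In a multidimensional scaling of the libraries, WT replicate 2 lay away from the rest (1.08 on axis 1, where the others spanned −0.533 to 0.152). PHF2 t/g replicate 1 held the choroid plexus transcript Ttr at 292 CPM, and all others at 1.29 to 4.46 CPM. By edgeR's quasi-likelihood test 291 of 12831 tested genes passed an adjusted p of 0.05, 100 higher and 191 lower in PHF2 t/g. With library size alone as the scaling, the split was 207 higher and 70 lower and the median log2 fold change over the tested genes was 0.12, where TMM gave 0.02.

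In the PHF2 t/g libraries 4 of the induced genes stood higher than in WT, while Nr3c1 and the other 4 induced genes did not pass the threshold and Nr3c2 was too low to test. Fkbp5, Cebpd, Apod and Angptl4 were 1.45- to 4.63-fold higher. Sgk1, Tsc22d3 and Ddit4 were 1.05- to 1.08-fold of WT. Of the 10 genes, 9 passed the filter on low counts and Nr3c2 did not. Of these 9, 4 were past the threshold upward and 0 downward, where 2.27% of all tested genes were past it in either direction, 0.779% upward and 1.49% downward. At an unadjusted p under 0.05 by edgeR the counts were also 4 and 0, where 14.7% of all tested genes were past it, 6.72% upward and 7.95% downward. DESeq2 called 2 upward and 0 downward, with an adjusted p for 7 of the 9. The groups of libraries did not overlap for 5 of the 9, 4 higher and 1 lower, against 20.6% of all tested genes (10.1% higher and 10.4% lower). The median log2 fold change was 0.11 over the 9 genes and 0.02 over all tested genes. Since the genes were chosen with this contrast known, nothing is read from these shares.

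**Figure D1:**
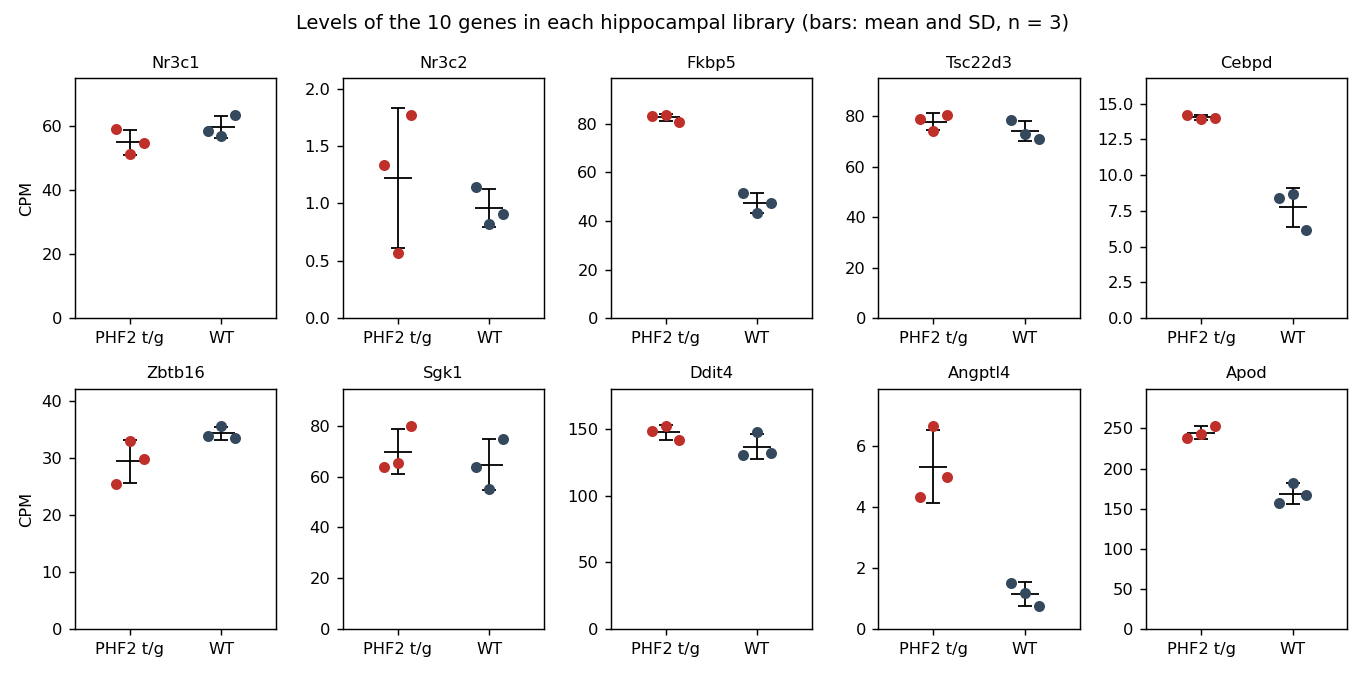
Level in CPM (y axes, each from 0) of the 10 genes in each PHF2 t/g and WT library, with horizontal lines at the group mean and bars of 1 SD (n = 3). Fkbp5, Cebpd, Angptl4 and Apod stood higher in every PHF2 t/g library than in any WT library, and Zbtb16 lower, while the groups overlapped for the other 5.

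The DNA element of both receptors is a palindrome of AGAACA and TGTTCT with 3 free letters between them, and promoter sequences are shown here to set genes that stood higher in PHF2 t/g beside genes that did not. RefSeq promoters (build GRCm38.p6) of 6 of the 10 genes were matched by symbol, those of Nr3c2, Fkbp5, Tsc22d3, Sgk1, Ddit4 and Apod, with 13 start sites in all. No sequence is shown for Cebpd, Angptl4 and Zbtb16, which had no entry. Nr3c1 was left out of the search, so none of the 13 starts is one of its own. The 250 bases before each start were searched on both strands for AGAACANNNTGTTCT, for the looser GNACANNNTGTNC, which overlaps it, and for the short element AGAACA. The complete palindrome occurred before 1 of the 13 starts, a start of Sgk1, and in 0.00913% of the 32851 promoters of the table (3 promoters). The looser form occurred before that same start, and in 0.387% of all promoters. The short element occurred before 4 of the 13 starts, all of Sgk1 or Tsc22d3, and in 16.1% of all promoters. The sequences below run 5′ to 3′ towards the start, with matches to these letters in capitals. Those of Sgk1 (chr10:21993640-21993889, plus strand) and Tsc22d3 (chrX:140600523-140600772, minus strand) hold a match and belong to genes whose level hardly differed. Those of Fkbp5 (chr17:28486150-28486399, minus strand) and Apod (chr16:31314809-31315058, minus strand) hold none and belong to genes that stood higher in PHF2 t/g. Ddit4, which did not stand higher, holds none either, nor does Nr3c2, which was too low to test. The same is true of 3 of the 6 Sgk1 starts and 2 of the 3 Tsc22d3 starts. No relation between a match and the level is therefore read from the 4 sequences.
Sgk1: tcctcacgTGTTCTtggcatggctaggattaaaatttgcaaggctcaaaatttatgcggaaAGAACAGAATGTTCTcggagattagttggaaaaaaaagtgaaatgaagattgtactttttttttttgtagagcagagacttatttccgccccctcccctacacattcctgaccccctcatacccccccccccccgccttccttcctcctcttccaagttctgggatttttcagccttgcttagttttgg
Tsc22d3: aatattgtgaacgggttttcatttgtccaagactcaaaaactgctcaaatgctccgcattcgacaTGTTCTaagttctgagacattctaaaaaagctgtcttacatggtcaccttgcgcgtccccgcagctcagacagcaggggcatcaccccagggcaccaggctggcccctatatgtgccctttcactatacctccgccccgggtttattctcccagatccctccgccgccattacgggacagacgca
Fkbp5: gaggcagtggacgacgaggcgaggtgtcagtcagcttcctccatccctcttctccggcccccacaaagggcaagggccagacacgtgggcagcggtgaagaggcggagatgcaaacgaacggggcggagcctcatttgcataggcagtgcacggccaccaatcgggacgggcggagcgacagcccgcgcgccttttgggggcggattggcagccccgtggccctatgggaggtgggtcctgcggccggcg
Apod: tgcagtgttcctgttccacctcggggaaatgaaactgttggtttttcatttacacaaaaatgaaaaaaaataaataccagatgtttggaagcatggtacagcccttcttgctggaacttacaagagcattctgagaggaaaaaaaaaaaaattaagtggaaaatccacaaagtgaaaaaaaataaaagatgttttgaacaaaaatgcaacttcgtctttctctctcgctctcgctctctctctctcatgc
In the Sgk1 sequence the palindrome ends 174 bases before the start. A match is a description of letters, not a bound site, and the lack of one says only that these letters are not in the window. In human cells the well studied elements of FKBP5 lie inside its introns, which were not searched here.

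Nr3c1, the glucocorticoid receptor, was read at 59.0, 51.1 and 54.7 CPM in the PHF2 t/g libraries and at 58.4, 56.9 and 63.4 CPM in the WT libraries. The groups overlapped, with the lowest value in PHF2 t/g replicate 2 and the highest in WT replicate 3. The log2 fold change was −0.12 (SE 0.101), with a 95% interval of −0.33 to 0.10, and it was −0.01 with library size alone. Nr3c2, the mineralocorticoid receptor (chromosome 8, 76898083 to 77245012), was close to the detection limit. It had 12, 4 and 11 counts in the PHF2 t/g libraries and 6, 7 and 6 counts in the WT libraries, where 1 count is worth 0.111 to 0.190 CPM. Over each group this came to 27 counts in PHF2 t/g and 19 in WT, a ratio of 1.3 with a 95% interval of 0.697 to 2.47 that covers counting error only. A difference within those bounds was not detectable at this depth. The annotation used for counting is not named, and tags outside the annotated gene would not be counted. Whether Nr3c2 tags were missed in this way was not tested, so its low count is no measure of how much receptor the tissue holds.

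Fkbp5 (chromosome 17, 28398753 to 28486149) encodes FKBP51, a cochaperone that lowers the hormone affinity of the glucocorticoid receptor and is itself induced by it. It had 83.3, 83.5 and 80.8 CPM in the PHF2 t/g libraries and 51.6, 43.1 and 47.4 CPM in the WT libraries. The PHF2 t/g libraries lay close together and above every WT library. The log2 fold change was 0.81 (SE 0.0988), or 1.75-fold with a 95% interval of 1.51 to 2.02. It ranged from 0.73 to 0.91 on the log2 scale over 15 other settings and stayed past the threshold in each. Within PHF2 t/g the coefficient of variation was 1.84%, less than the 4.04% that counting error alone gives. Within WT it was 8.94%, where counting error alone gives 5.62%.

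Among the transcription regulators, Cebpd (chromosome 16, 15887286 to 15889545), a C/EBP factor induced by glucocorticoids and by inflammatory signals, was the one that stood higher. It was read at 14.2, 13.9 and 14.0 CPM in the PHF2 t/g libraries and at 8.38, 8.69 and 6.20 CPM in the WT libraries. The groups did not overlap. The PHF2 t/g values lay closer together (coefficient of variation 1.08%) than the 9.79% that counting error alone gives at 87 to 128 counts. The log2 fold change was 0.85 (SE 0.177), a 1.81-fold difference (95% interval 1.40 to 2.33). Cebpd dropped below the threshold without PHF2 t/g replicate 1, 2 or 3 or without WT replicate 3, at log2 fold changes of 0.84, 0.86, 0.85 and 0.71.

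Tsc22d3 (chromosome X, 140539528 to 140600522) encodes GILZ, a leucine zipper protein through which glucocorticoids dampen inflammatory transcription. It was read at 78.7, 74.0 and 80.4 CPM in the PHF2 t/g libraries and at 78.4, 73.1 and 71.0 CPM in the WT libraries. These values interleaved, and the log2 fold change was 0.07 with a 95% interval of −0.12 to 0.26. Zbtb16 (chromosome 9, 48651797 to 48836225), a zinc finger repressor also called PLZF, had 25.4, 32.9 and 29.8 CPM in the PHF2 t/g libraries and 33.9, 35.6 and 33.4 CPM in the WT libraries. Every PHF2 t/g library lay below every WT library, by a narrow margin in PHF2 t/g replicate 2. The log2 fold change was −0.23 (SE 0.122; 95% interval −0.48 to 0.03) and did not pass the threshold.

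Sgk1 (chromosome 10, 21882184 to 21999903) encodes a kinase that regulates ion channels and transporters and is an early target of both receptors. It had 64.0, 65.6 and 80.1 CPM in the PHF2 t/g libraries and 64.0, 55.1 and 75.1 CPM in the WT libraries. Replicate 3 was the highest library of both groups, and the groups overlapped. The log2 fold change was 0.11 with a 95% interval of −0.15 to 0.37, and without WT replicate 2 it was −4.98e-04. Ddit4 (chromosome 10, 59949675 to 59951770) encodes REDD1, an inhibitor of mTORC1 signalling that glucocorticoids and low oxygen induce. It was read at 149, 153 and 142 CPM in the PHF2 t/g libraries and at 131, 148 and 132 CPM in the WT libraries. WT replicate 2 fell among the PHF2 t/g values, and the log2 fold change was 0.11 with a 95% interval of −0.06 to 0.28. For Sgk1, Tsc22d3 and Ddit4 the intervals leave room for a rise of up to 1.29-, 1.20- and 1.21-fold.

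Both secreted proteins of lipid handling stood higher. Angptl4 (chromosome 17, 33774900 to 33781575), an inhibitor of lipoprotein lipase that fasting, low oxygen and glucocorticoids induce, was read at 4.33, 6.67 and 4.99 CPM in the PHF2 t/g libraries and at 1.52, 1.17 and 0.757 CPM in the WT libraries. The lowest PHF2 t/g library held more than the highest WT library, but the counts were few, with 39, 47 and 31 in PHF2 t/g and 8, 10 and 5 in WT. The log2 fold change was 2.21 (SE 0.35), which is 4.63-fold with a 95% interval of 2.78 to 7.69. Apod (chromosome 16, 31296192 to 31314808) encodes a lipid carrier of the lipocalin family made by glia and by perivascular and meningeal cells, and it was the most abundant of the 10 genes. It had 238, 243 and 253 CPM in the PHF2 t/g libraries and 156, 182 and 167 CPM in the WT libraries. Again the groups did not overlap, and the log2 fold change was 0.54 (SE 0.0806), or 1.45-fold with a 95% interval of 1.29 to 1.63. Angptl4 and Apod passed the threshold in each of the edgeR settings, over which their log2 fold changes ranged from 1.99 to 2.39 and from 0.48 to 0.64.

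Averaged over all 6 libraries, the order of levels was Apod (207 CPM), Ddit4 (142 CPM), Tsc22d3 (75.9 CPM), Sgk1 (67.3 CPM), Fkbp5 (64.9 CPM), Nr3c1 (57.2 CPM), Zbtb16 (31.8 CPM), Cebpd (10.9 CPM), Angptl4 (3.24 CPM) and Nr3c2 (1.09 CPM). Neighbours from Tsc22d3 down to Nr3c1 overlapped in their ranges over libraries, as did Cebpd with Angptl4 and Angptl4 with Nr3c2. Fkbp5 lay below Nr3c1 in every WT library and above it in every PHF2 t/g library. Apod and Ddit4 exceeded all genes below them in each library.

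**Figure D2:**
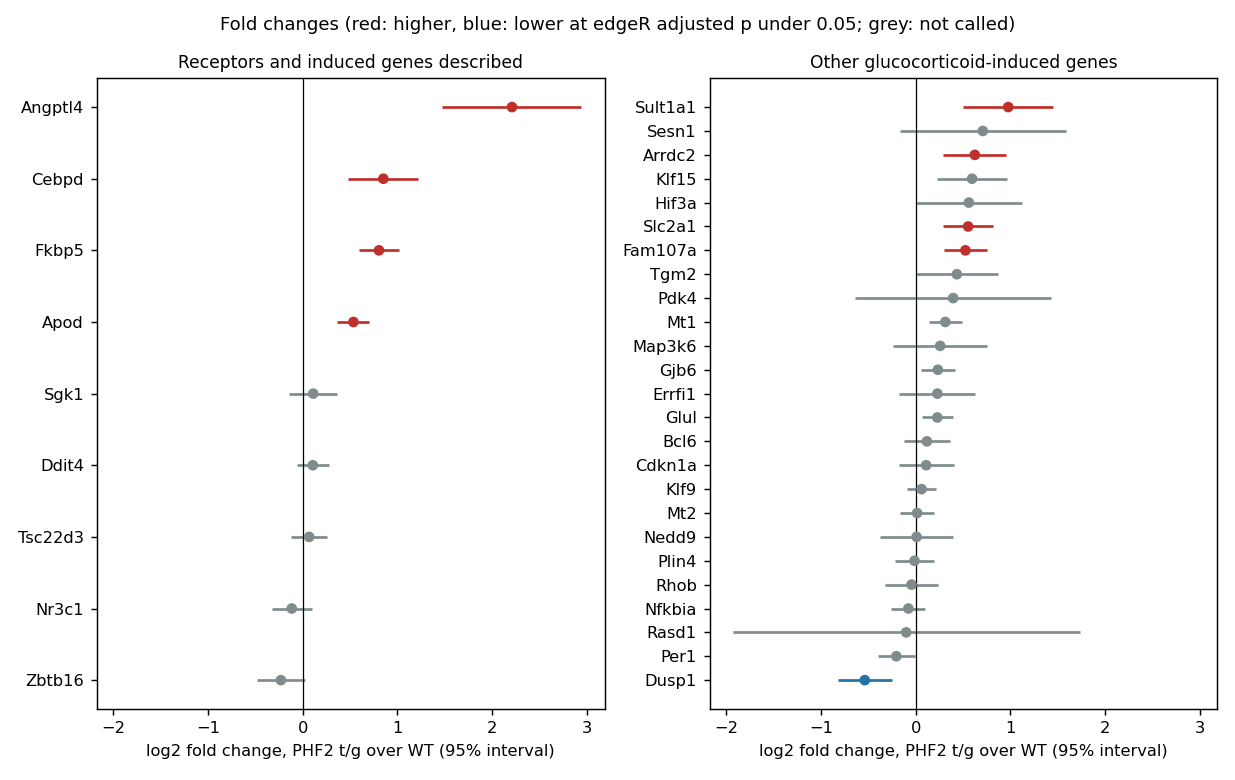
Log2 fold change of PHF2 t/g over WT (x axis) with 95% intervals for the 9 tested receptor and induced genes (left) and for 25 other glucocorticoid-induced genes (right), in red or blue where past an edgeR adjusted p of 0.05. On the left 4 genes are red, and on the right 4 are red and Dusp1 is blue.

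A second list held 28 other genes known to be induced by glucocorticoids, of which 25 passed the filter on low counts. Of these 4 rose, 1 fell and 20 did not pass by edgeR, beside 0.779% and 1.49% of all tested genes. At an unadjusted p under 0.05, 10 were higher and 2 lower, beside 6.72% and 7.95% of all tested genes. Among the 25, 19 lay above 0 and 6 below, with a median log2 fold change of 0.23, beside 0.02 over all tested genes. The PHF2 t/g libraries lay above all WT libraries for 11 of the 25 and below them for 2, beside 10.1% and 10.4% of all tested genes. This list too was chosen with earlier results of these data known, so nothing is read from these shares. Fam107a, an actin-binding protein raised in the hippocampus by stress, rose to 82.2 ± 10.9 CPM in PHF2 t/g, against 57.2 ± 3.02 CPM in WT (edgeR adjusted p = 0.0131). Slc2a1, the glucose transporter of the blood-brain barrier, rose to 51.0 ± 3.05 CPM in PHF2 t/g, against 35.0 ± 6.13 CPM in WT (edgeR adjusted p = 0.0247). Sult1a1, a sulfotransferase, rose 1.97-fold and Arrdc2, an arrestin-domain protein, rose 1.54-fold (edgeR adjusted p = 0.0289 and 0.0448). Dusp1, a phosphatase of MAP kinases that neuronal activity also induces, fell to 25.1 ± 4.31 CPM in PHF2 t/g, against 36.6 ± 3.62 CPM in WT (edgeR adjusted p = 0.0433).

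All 5 calls ended when certain libraries were left out, among them PHF2 t/g replicate 1 for each. The list had 0, 2 or 1 genes past the threshold without PHF2 t/g replicate 1, 2 or 3, and 4, 7 or 5 without WT replicate 1, 2 or 3. DESeq2, which gave an adjusted p for 14 of the 25, called Fam107a, Slc2a1 and Mt1 higher and Dusp1 lower, and gave Sult1a1 and Arrdc2 none. The fit that was not robust ended all of the calls but that of Fam107a, with edgeR adjusted p of 0.056 to 0.0868. Fam107a also dropped out without PHF2 t/g replicate 3, and the other 4 genes without either of the remaining PHF2 t/g replicates. Leaving out WT replicate 1 ended the calls of Sult1a1 and Arrdc2, WT replicate 2 that of Arrdc2 and WT replicate 3 that of Dusp1. Scaling by library size alone also ended that of Dusp1 (edgeR adjusted p = 0.11), as did the replicate number as a block (edgeR adjusted p = 0.0525). Among the other genes of this list, Per1, Klf9, Mt1 and Mt2 did not pass by edgeR as reported. Per1, a clock gene with a known response element, was at 69.4 ± 3.98 CPM in PHF2 t/g libraries and 80.0 ± 3.29 CPM in WT libraries, with edgeR adjusted p = 0.309. Klf9, a steroid-responsive factor of hippocampal neurons, was at 507 ± 19.1 CPM in PHF2 t/g libraries and 485 ± 19.4 CPM in WT libraries. Of the metallothioneins, Mt1 was at 465 ± 17.8 CPM in PHF2 t/g libraries and 374 ± 37.3 CPM in WT libraries (edgeR adjusted p = 0.0542), while Mt2 was at 880 ± 80.5 CPM in PHF2 t/g libraries and 870 ± 65.2 CPM in WT libraries. Mt1 did pass by DESeq2, with library size alone, without the low-count filter and with the replicate number as a block. It also passed without WT replicate 2, and without both that library and PHF2 t/g replicate 1. Lcn2, a lipocalin induced in inflammation, did not pass the filter and had 16, 10 and 10 counts in the PHF2 t/g libraries and 1, 0 and 0 in the WT libraries. It passed by edgeR in the fit without that filter and with a filter of at least 1 CPM in 3 libraries. Lcn2 also passed without PHF2 t/g replicate 2 or 3 and without WT replicate 1, 2 or 3. Per1, Klf9, Mt1, Mt2, Arrdc2 and Lcn2 were picked for mention after their values were seen.

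The machinery around the receptors was measured by 4 lists, in which 1 gene, Avp, passed. Of all tested genes, 0.779% passed upward and 1.49% downward by edgeR. At an unadjusted p under 0.05 by edgeR these shares were 6.72% and 7.95%. Of 14 chaperones and cochaperones, which fold the receptor for hormone binding, none passed by edgeR, with 0 higher and 3 lower at an unadjusted p under 0.05, while DESeq2 called 1, Stub1, lower. The smallest p there was that of St13, the Hsp70-interacting protein, at 113 ± 3.38 CPM in PHF2 t/g libraries and 138 ± 7.97 CPM in WT libraries. Of 8 tested genes of corticosteroid metabolism and transport none passed by edgeR, with 0 higher and 1 lower at an unadjusted p under 0.05, and DESeq2 gave an adjusted p for 1 of them, which did not pass. The one at an unadjusted p under 0.05 was Hsd11b1, which regenerates active hormone within cells, at 5.55 ± 0.971 CPM in PHF2 t/g libraries and 8.82 ± 1.81 CPM in WT libraries (edgeR adjusted p = 0.127). Of 15 receptor coregulators none passed by edgeR, nor did the 12 with an adjusted p by DESeq2, and none had an unadjusted p under 0.05, with the smallest p at Nrip1. Of 6 tested peptides and receptors of the stress axis, Avp (vasopressin) alone passed by edgeR, at 27.3 ± 0.853 CPM in PHF2 t/g libraries and 0.284 ± 0.25 CPM in WT libraries (edgeR adjusted p = 3.54e-10). Crh, the hormone that starts the stress response, was among the 5 that did not. DESeq2 gave an adjusted p for 2 of the 6, which did not pass, and gave Avp none.

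The 4 genes that stood higher differ in the cells known to make them, so the levels of cell type markers are given beside them. In bulk tissue, more cells of a type and more RNA per cell cannot be told apart. The counts below stand beside 0.779% of all tested genes called higher and 1.49% called lower by edgeR. At an unadjusted p under 0.05 by edgeR, 6.72% of all tested genes were higher and 7.95% lower. Of 15 endothelial and mural markers, 5 rose and 0 fell (Vwf, Flt1, Slc2a1, Ly6c1 and Abcc9, the last named after its value was seen), with a summed 218 to 237 CPM in PHF2 t/g libraries and 159 to 199 CPM in WT libraries. At an unadjusted p under 0.05, 8 were higher and 1 lower, and DESeq2 called 2 higher and 0 lower of the 4 to which it gave an adjusted p. The lower one was Cldn5, named after its value was seen, at 11.7 ± 0.926 CPM in PHF2 t/g libraries and 17.9 ± 3.87 CPM in WT libraries (edgeR adjusted p = 0.0791). Without Slc2a1 the sums were 169.98 to 184 CPM in PHF2 t/g libraries and 131 to 159 CPM in WT libraries. Each of these 5 calls ended without PHF2 t/g replicate 1, and those other than Vwf also ended without PHF2 t/g replicate 2 or 3. Those other than Vwf ended as well with the fit that was not robust, and without both PHF2 t/g replicate 1 and WT replicate 2. Leaving out WT replicate 1 ended those of Ly6c1 and Abcc9, WT replicate 2 that of Abcc9, and WT replicate 3 those of Flt1 and Ly6c1. Slc2a1 is also on the list of glucocorticoid-induced genes. Of 9 tested leptomeningeal and fibroblast markers, Mgp and Fn1 rose and 0 fell, with a summed 225 to 249 CPM in PHF2 t/g libraries and 146 to 172 CPM in WT libraries. At an unadjusted p under 0.05, 7 were higher and 1 lower, and DESeq2 called the same 2 genes. Mgp and Fn1 passed under all 15 other settings. Mgp alone was at 105 to 119 CPM in PHF2 t/g libraries and 37.6 to 52.7 CPM in WT libraries, and without it the sums overlapped, at 115 to 129.9 CPM in PHF2 t/g libraries and 109 to 119 CPM in WT libraries. These sums without a gene were added after the values were seen. None of the markers on these lists was at 0 counts over all libraries. The endothelial sum, and the leptomeningeal sum with Mgp in it, were higher in every PHF2 t/g library than in any WT library, as were Fkbp5, Cebpd, Angptl4 and Apod. The part of these cells in those levels was not tested.

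Oligodendrocytes and astrocytes are also known to express Apod, and their marker sums overlapped between the groups. The shares of all tested genes were again 0.779% higher and 1.49% lower by edgeR, and 6.72% and 7.95% at an unadjusted p under 0.05. Of 12 oligodendrocyte markers, 0 rose and Opalin and Mag fell, with a summed 2672 to 2716 CPM in PHF2 t/g libraries and 2497 to 2751 CPM in WT libraries. The call of Mag ended with library size alone or without any 1 library but WT replicate 3. Of 10 astrocyte markers none passed by edgeR, nor did the 8 with an adjusted p by DESeq2, with 1 higher and 1 lower at an unadjusted p under 0.05. The smallest p was that of Aqp4, the water channel, at 81.0 ± 13.2 CPM in PHF2 t/g libraries and 101 ± 10.6 CPM in WT libraries, and the sums were 3225 to 3496 CPM in PHF2 t/g libraries and 3084 to 3412 CPM in WT libraries. Microglia markers summed to 328 to 349 CPM in PHF2 t/g libraries and 335 to 406 CPM in WT libraries, and blood cell markers to 113 to 179.6 CPM in PHF2 t/g libraries and 43.0 to 148 CPM in WT libraries. Choroid plexus markers summed to 566, 163 and 159.8 CPM across PHF2 t/g replicates 1 to 3 and to 142 to 158 CPM across WT replicates, with no overlap. In PHF2 t/g replicates 2 and 3 most of that sum was Enpp2, at 149 and 145 CPM, beside 132 to 147 CPM in WT libraries. Ttr was not above WT in those 2 libraries, whereas Clic6 was, at 5.68 and 8.69 CPM beside 2.09 to 3.64 CPM. In the microglia, blood cell and choroid plexus lists no gene passed by edgeR, and the smallest p were those of Cx3cr1, S100a8 and Clic6, with log2 fold changes of −0.41, 1.25 and 1.79 (edgeR adjusted p = 0.0647, 0.131 and 0.0614). At an unadjusted p under 0.05, 1 microglia marker was higher and 2 lower, 1 blood cell marker was higher and 2 choroid plexus markers were higher, and DESeq2 called Cx3cr1 lower. Without PHF2 t/g replicate 1, the library with the highest choroid plexus sum, Fkbp5, Apod and Angptl4 stayed past the threshold and Cebpd did not. Without both that library and WT replicate 2, all 4 were past it.

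**Figure D3:**
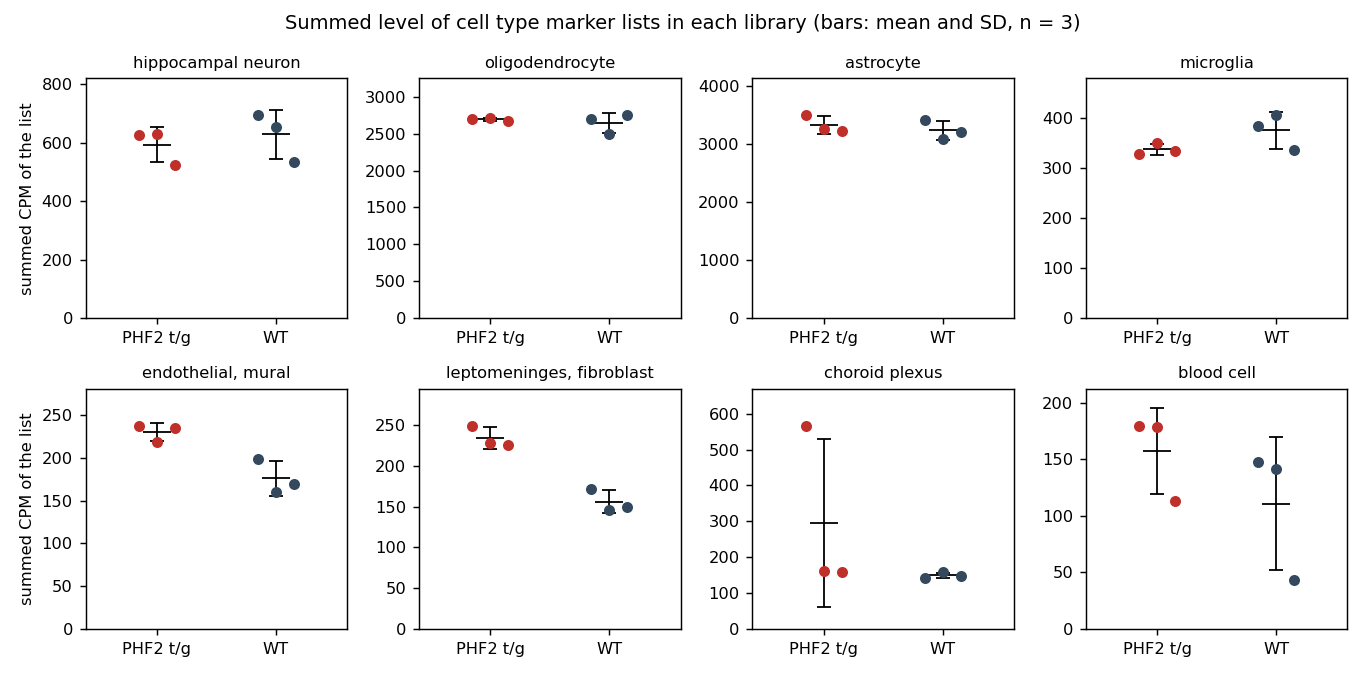
Summed CPM (y axes, each from 0) of 8 cell type marker lists in each PHF2 t/g and WT library, with the group mean and 1 SD (n = 3). The endothelial and leptomeningeal sums lie higher in all PHF2 t/g libraries, the leptomeningeal one through Mgp. The choroid plexus sum does so too, by far the highest in PHF2 t/g replicate 1 and by a narrow margin in replicates 2 and 3. The other 5 lists overlap between the groups.

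The 4 genes that stood higher lie on 2 chromosomes, and Sgk1 and Ddit4, which did not pass the threshold, also share chromosome 10. Fkbp5 and Angptl4 are 5.29 Mb apart on chromosome 17, and Cebpd and Apod 15.4 Mb apart on chromosome 16. Their tested neighbours are given beside the share of all genes, and a part of position in these levels was not tested. Within 1 Mb, 0 of 26 tested genes around Fkbp5, 0 of 20 around Apod, 1 of 10 around Cebpd (Prkdc) and 0 of 56 around Angptl4 rose. Around the same 4 genes 1, 0, 0 and 1 fell, where 1.49% of all tested genes fell. The medians of the log2 fold changes there were −0.07, 0.02, 0.05 and 0.06. Over the whole of chromosome 17, 1.52% of 591 tested genes rose, over chromosome 16, 1.06% of 379, and over all 12239 tested genes with a RefSeq position, 0.809%.

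Genes with the most similar profile over the 6 libraries were named by the root mean square difference of centred log2 CPM, over 9238 other genes whose log2 CPM averaged at least 3. Closest to Fkbp5 were Vegfa, a growth factor of blood vessels (difference 0.0882, at 79.5 CPM in PHF2 t/g libraries and 50.3 CPM in WT libraries), and Pdyn, the dynorphin precursor (0.0943, at 59.0 CPM in PHF2 t/g libraries and 32.9 CPM in WT libraries). Phyhd1, Gabra2 and Cdc14b followed at 0.0974 to 0.109. Cebpd and Apod ranked 40 and 68 in likeness to Fkbp5, at 0.177 and 0.194, while Sgk1, Tsc22d3 and Ddit4 ranked 2638, 2447 and 2270. Angptl4 lay below the level required. Closest to Nr3c1 were Emg1, Cfdp1, Slc8a2, Rpl36a and Ehbp1, at 0.0195 to 0.0301. The 6 libraries fall into 2 groups, so genes with a like difference between the groups rank close to each other.

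**Figure D4:**
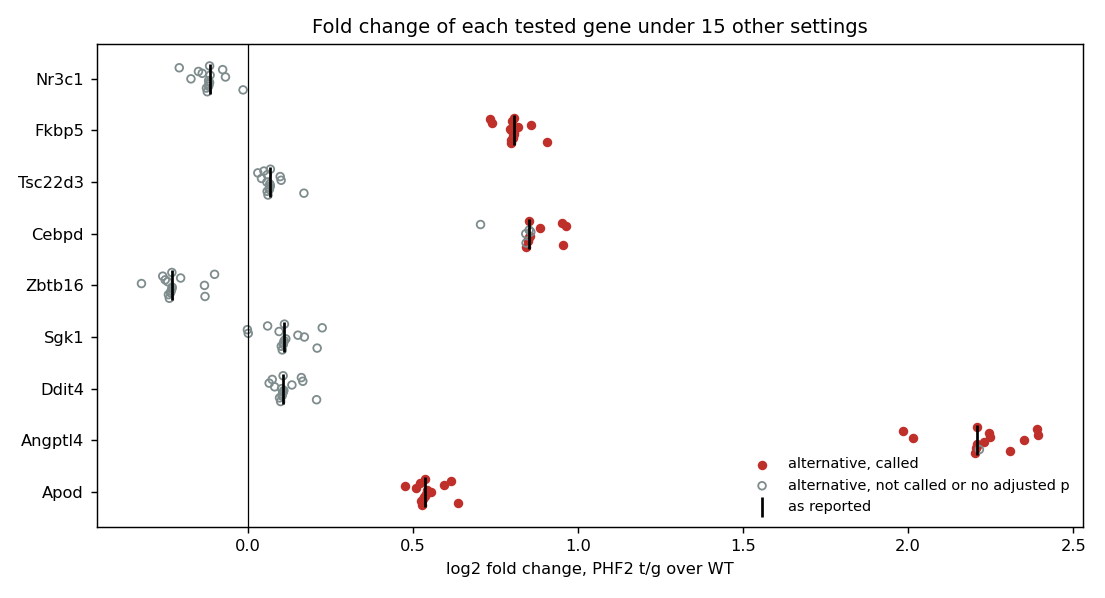
Log2 fold change (x axis) of the 9 tested genes as reported (black bars) and under 15 other settings (points, filled where past an adjusted p of 0.05). Fkbp5, Apod and Angptl4 keep to the right of 0.4 in every setting, Cebpd changes sides of the threshold without changing direction, and Sgk1 touches 0.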

How the data were processed

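Each of the 6 deposited files holds raw counts per gene symbol for 1 library, with no normalization, per the file headers and the values. Trizol RNA was made into QuantSeq 3′ end libraries, per the labels' protocols. The build mm10, Bowtie2 and edgeR are named, without roles, per the submitters' processing notes. No source used here names the counting program, annotation, strand setting or versions, so overlapping genes cannot be separated. Groups and replicate numbers came from the titles. The labels name separate samples but not separate animals, so p-values measure only the spread between these libraries.

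Genes were kept by filterByExpr (12831 of 23282 rows), scaled by TMM and tested with edgeR 4.0.16 in R 4.3.3 (glmQLFit with robust = TRUE, then glmQLFTest on genotype alone), and p-values were adjusted by Benjamini and Hochberg's method over all tested genes, with a threshold of 0.05. Standard errors and 95% intervals come from that fit. The 10 genes and the lists were chosen with earlier results of these data known. All 10 were described in full. In each list the genes past the threshold (up to 4, by p) or otherwise the gene with the smallest p were named. Phf2, Ttr, Enpp2, Stub1, Crh, Prkdc and the genes so marked in the report were named after their values were seen. Alternatives were other scalings, DESeq2 1.42.0, other filters, no robust fit, no Rn45s, Lrrc17 and Akap5 rows, a replicate block, and libraries left out. The fit was tested on simulated data. Replicate pairs differed by more than sampling noise, the closest at a chi-square of 2.95 per gene. Promoters and coordinates are from RefSeq on GRCm38.p6. For 11 of the 13 starts, the 50 bases after the start, which are not shown, were found in GENCODE M21 transcripts of the gene. The promoters of those 11 starts therefore read along its strand.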

Additional observations from a re-analysis of the deposited data

How the results depend on the processing

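Of the 10 genes described, 4 passed the threshold as reported, and DESeq2 called 2 (Fkbp5 and Apod), since it gave Cebpd and Angptl4 no adjusted p. With 1 library left out the count was 3 to 4. Of the other glucocorticoid-induced genes, 5 passed, with 8 without the low-count filter, 1 with the fit that was not robust, 2 without both PHF2 t/g replicate 1 and WT replicate 2, and 0 to 7 with 1 library left out. Of the other pathway genes 1 passed (Avp), 3 without the low-count filter and 1 with any library left out. DESeq2 also called 1, but that was Stub1, and it gave Avp no adjusted p. Of all tested genes 291 passed, with 606 without that filter, 149 with the fit that was not robust, 140 without both of those libraries and 49 to 392 with 1 library left out. The replicate number as a block gave 4, 6, 1 and 299 in these 4 counts. The numbers pair no libraries in the labels, and the deviations of same-numbered libraries correlated at −0.00445, 0.123 and 0.0846, so the block is not used as a pairing. Over 41 named genes and 15 settings, 528 of 615 values kept their direction and were not seen to change side of the threshold. These 528 include genes to which DESeq2 gave no adjusted p, among them Cebpd and Angptl4, whose side there is not known. Of the other values, 72 dropped below the threshold, 13 came to pass it and 2 changed sign. Those 2 were Sgk1 without WT replicate 2 (−4.98e-04, with a range of −4.98e-04 to 0.23 with 1 library left out) and Emg1 with library size alone (0.00462). The cause of these moves was not tested. Depth limits Nr3c2 and Angptl4 most, where 1 count is worth 0.111 to 0.190 CPM.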
